A study of Mus musculus with 24 samples.

Results

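The genes described here are the cyclins, the cyclin-dependent kinases (CDKs), the CDK inhibitors and the pocket proteins, E2F factors and mitotic kinases around them, in mouse embryonic stem cells (ESCs) and expanded potential stem cells (EPSCs). They were chosen by symbol from a list of 37, of which 36 were found in both deposited tables under the same gene identifiers, out of 21533 genes tested for J1 cells and 24007 for the tet-off lines. Cdkn2d was not found under that symbol, so its expression is not analysed here and it enters only the promoter counts. Poly(A) RNA was sequenced from 24 libraries in 12 groups of 2. The wild-type line J1 gave ESCs, grown in serum and LIF with the GSK3 inhibitor CHIR99021 and the MEK inhibitor PD0325901, D-EPSCs, grown in N2B27 with LIF, CHIR99021, dimethindene maleate and minocycline, and L-EPSCs, grown in serum replacement with LIF, CHIR99021, PD0325901, A-419259, XAV939, JNK inhibitor VIII and SB203580. The other 18 libraries came from 3 tet-off ESC lines, Oct4-cKO (ZHBTc4), Sox2-cKO (2TS22C) and Nanog-cKO (NgcKO), in which the endogenous gene is deleted and a transgene keeps the factor on until doxycycline (Dox) is added, so that all groups of a line, controls included, live on the transgene. Each tet-off line was sampled as ESCs, as L-EPSCs and as L-EPSCs after Dox, and each is a single established line. The study's methods give the ESC medium for J1 and not for these lines, so J1 and tet-off conversions may start from different media. The labels do not say whether the libraries of a group came from separate cultures, so the p-values measure only the spread between these libraries, which may be technical.

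A mammalian cell passes from G1 into S phase when cyclin D with CDK4 or CDK6, and then cyclin E with CDK2, phosphorylate the pocket proteins Rb1, Rbl1 (p107) and Rbl2 (p130), which releases the E2F factors that drive the genes of DNA replication. Inhibitors of the INK4 family (Cdkn2a, Cdkn2b, Cdkn2c) block CDK4 and CDK6, and Cdkn1b (p27) and its relatives Cdkn1a (p21) and Cdkn1c (p57) act on cyclin E, A and D complexes. Mouse ESCs are known for a short G1 phase, high cyclin E-CDK2 activity and low levels of D-type cyclins and INK4 inhibitors.

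The promoters of 4 members are shown because these genes carry the results below. E2f3 and E2f8 rose when Oct4 was shut off, Cdk6 was lower in the L-EPSCs of every tet-off line, and Cdk1 was called in no comparison. The windows run from 250 bases before to 50 bases after a RefSeq start (GRCm38.p6), 5′ to 3′ on the strand of the gene, and capitals mark letters that match one of 4 motifs on either strand: an E2F site (TTTCCCGC, TTTGGCGC, TTTGCCGC or TTTCGCGC), the cell cycle homology region or CHR (TTTGAA or TTCGAA), the CCAAT box (CCAAT) and the octamer that Oct4 binds (ATGCAAAT). The E2f3 window lies at chr13:29986014-29986313 on the minus strand, that of E2f8 at chr7:48881547-48881846 on the minus strand, that of Cdk6 at chr5:3343643-3343942 on the plus strand and that of Cdk1 at chr10:69352863-69353162 on the minus strand.
E2f3: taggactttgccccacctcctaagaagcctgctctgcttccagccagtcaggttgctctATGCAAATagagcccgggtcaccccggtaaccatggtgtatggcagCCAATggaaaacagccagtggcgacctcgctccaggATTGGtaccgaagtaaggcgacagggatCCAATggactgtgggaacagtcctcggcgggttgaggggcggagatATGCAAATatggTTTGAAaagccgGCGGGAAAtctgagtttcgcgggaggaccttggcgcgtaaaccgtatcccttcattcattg
E2f8: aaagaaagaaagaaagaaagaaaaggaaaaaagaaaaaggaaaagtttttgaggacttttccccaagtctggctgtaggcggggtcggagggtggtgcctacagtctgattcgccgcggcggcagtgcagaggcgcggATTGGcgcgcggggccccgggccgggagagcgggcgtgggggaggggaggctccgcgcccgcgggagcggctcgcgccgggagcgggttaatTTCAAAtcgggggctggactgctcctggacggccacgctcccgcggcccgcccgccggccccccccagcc
Cdk6: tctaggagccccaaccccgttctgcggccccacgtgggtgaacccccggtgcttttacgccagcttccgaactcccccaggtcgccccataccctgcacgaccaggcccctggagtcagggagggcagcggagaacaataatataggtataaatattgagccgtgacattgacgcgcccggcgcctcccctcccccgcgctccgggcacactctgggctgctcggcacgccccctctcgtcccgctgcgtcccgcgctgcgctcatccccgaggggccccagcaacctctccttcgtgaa
Cdk1: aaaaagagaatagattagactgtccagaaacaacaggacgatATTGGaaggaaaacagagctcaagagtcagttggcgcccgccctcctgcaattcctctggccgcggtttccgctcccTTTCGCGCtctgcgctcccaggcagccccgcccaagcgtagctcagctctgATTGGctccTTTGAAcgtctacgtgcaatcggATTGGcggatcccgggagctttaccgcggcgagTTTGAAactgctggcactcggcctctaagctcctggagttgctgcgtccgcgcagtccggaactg

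The E2f3 window held 7 matches, 2 of them octamers with first bases at -191 and -35 from the start. An octamer was found in 1.74% of the 32851 promoter windows of the reference, and at least 2 in 0.11%. Among the 32 windows of the 27 listed genes that have one, E2f3 was the gene with an octamer, and its other window held none of the 4 motifs. E2F sites were found in 8 of the 32 member windows (25%, against 2.26% of all windows), CHR in 11 (34.4%, against 19.2%) and the CCAAT box in 20 (62.5%, against 37.4%). The Cdk1 window held 6 matches, among them an E2F site and 2 CHR matches, the E2f8 window 2 and the Cdk6 window none. No matches of different motifs overlapped, and a match is only these letters in this window. Ccnd1, Ccnd2 and Ccne2 are among the 10 listed genes with no window in the table used here.

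**Figure D1:**
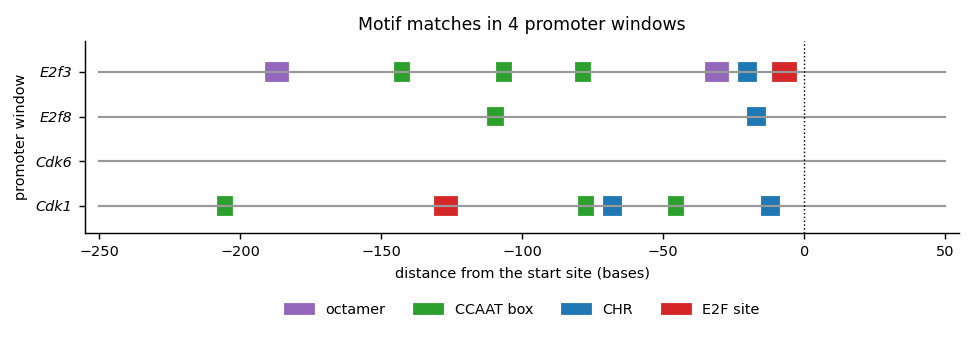
Positions of the motif matches in the 4 promoter windows printed above, drawn against the distance in bases from the RefSeq start site (dotted line at 0). Each coloured box is 1 match, and E2f3 has 7, Cdk1 6, E2f8 2 and Cdk6 none.

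Values are reads per gene divided by the size factor of the library, called normalized counts, from 10807631 to 15069899 reads on genes per library. A member was called when the adjusted p of limma was under 0.05 over all genes tested and the log2 fold change was over 0.6 (between cell states) or over 1 (after Dox). The target genes followed the labels. Pou5f1, which encodes Oct4, went from 6420 and 6316 to 162 and 184 after Dox in the Oct4-cKO line, Sox2 from 4966 and 4701 to 47.0 and 53.2 in the Sox2-cKO line, and Nanog only from 9119 and 8847 to 3166 and 3112 in the Nanog-cKO line. The factors did not fall alone after Dox. In the Oct4-cKO line Sox2 (log2 fold change -4.48) and Nanog (-3.41) also fell, and in the Sox2-cKO line Pou5f1 (-1.39) and Nanog (-3.48). In the Nanog-cKO line Pou5f1 (-0.44) and Sox2 (-0.31) were not called. Effects of factors that fell in the same line cannot be told apart. No target gene checks which J1 EPSC libraries are D and which are L, and directions between them are those of the labels. The J1 libraries also held RNA of marker genes of other cell types. The summed level of 12 fibroblast markers was 101119 to 103378 in ESCs, 65350 to 65524 in D-EPSCs and 23545 to 24146 in L-EPSCs. That of 8 macrophage markers was 2561 to 2564, 20038 to 20158 and 15813 to 15888 in the same order. By the study's methods J1 ESCs were grown on fibroblast (MEF) feeder cells or on gelatin. Both EPSCs were kept without feeders for several passages before RNA-seq. The source of the marker RNA was not tested. The fibroblast markers did not move as one between D-EPSCs and ESCs, where 4 were called higher (Pdgfra by 2.03 and Dcn by 1.34 on the log2 scale) and 4 lower (Col1a1 at -1.19), while 8 of the 12 were lower and 0 higher in L-EPSCs than in ESCs. The summed level of 6 primitive endoderm markers, Pdgfra among them too, was 403 to 405 in ESCs, 1550 to 1563 in D-EPSCs and 939.7 to 979 in L-EPSCs. Pdgfra and Dab2 were the 2 called higher in D-EPSCs than in ESCs (by 2.03 and 2.01), and the median of the list was -0.02. Sox17 and Foxa2 were at 0 in both D-EPSC libraries. L-EPSCs had 3 of the 6 called higher than ESCs and 0 lower. In the tet-off libraries the fibroblast sum (11 of the 12 were listed) was 543 to 1244 and the macrophage sum 186 to 761, with Lum at 0 in 8 of the 9 groups. The part of these cells in the J1 values below was not tested, and in bulk samples fewer cells of a type and less RNA per cell cannot be told apart.

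Across the 9 comparisons of cell states and Dox, 28 of the 36 members (77.8%) were called at least once, as were 65.5% of the 20812 genes tested in both tables, and 8 in none. The 8 were Ccna2, Ccnb1, Ccnb2, Cdk1, Cdc25c, Wee1 and Aurkb, which act in S phase, G2 and mitosis, and Cdk7, the kinase that activates other CDKs, and their fitted log2 fold changes lay between -0.61 and 0.49 in all 9. Conversion of the tet-off lines to L-EPSCs called 23 members in at least 1 line (63.9%, against 44.4% of all genes tested) and 7 in all 3 (19.4%, against 8.83%). Dox called 8 members in at least 1 line (22.2%, against 27.5% of all genes) and 1 in all 3 (2.78%, against 1.72%), and at least 1 of the J1 comparisons called 6 members (16.7%, against 31.3%). The 7 called in every tet-off conversion were Ccnd2, Cdk6, E2f3 and E2f8, all lower in L-EPSCs, and Cdkn2a, Cdkn2b and Cdkn2c, all higher. The member called after Dox in all lines was Ccnd1.

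**Figure D2:**
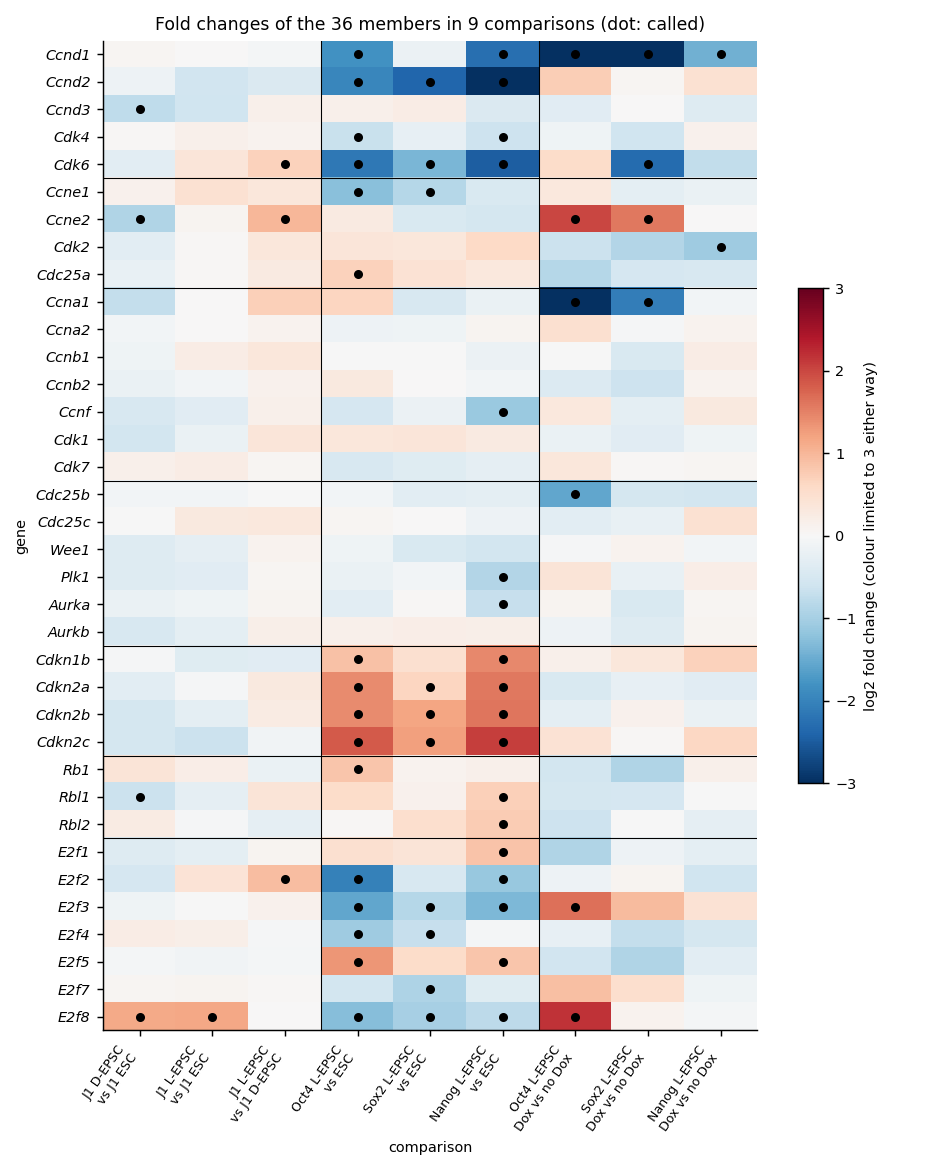
Log2 fold changes of the 36 members (rows, grouped by role) in the 9 comparisons (columns), with colour limited to 3 in either direction and a black dot where the member was called. The INK4 rows are red with dots in the 3 tet-off conversions, Ccnd2, Cdk6, E2f3 and E2f8 are blue with dots there, and the J1 columns hold few dots.

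In the tet-off lines Ccnd2, Cdk6, E2f3 and E2f8 fell and the INK4 inhibitors rose on conversion to L-EPSCs, while Ccnd1 fell in the Oct4-cKO and Nanog-cKO lines. In the Oct4-cKO line 7 members were called higher (13% of all genes tested were) and 9 lower (15.4%). In the Sox2-cKO line 3 were higher (7.99% of all genes) and 7 lower (11.6%), and in the Nanog-cKO line 8 were higher (12.2%) and 10 lower (14.7%). The share of members called was thus 44.4%, 27.8% and 50%. The median log2 fold change of the members was 0.01, -0.05 and -0.19, and that of all genes 0.00 in each line.

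Ccnd1 (NCBIM37 chr7:152115836-152125774, minus strand), the cyclin D1 gene through which growth factor signals reach CDK4 and CDK6, read 1133 and 1083 in Oct4-cKO ESCs and 305 and 322 in the L-EPSCs made from them. It read 1862 and 1850 in Nanog-cKO ESCs and 367 and 405 in Nanog-cKO L-EPSCs. In the Sox2-cKO line it read 417 and 492 in ESCs against 408 and 390.1 in L-EPSCs. ESC libraries lay above L-EPSC libraries in each line, by little in the Sox2-cKO line. The log2 fold change was -1.82 ± 0.24 (SE, adjusted p = 1.01e-05) in the Oct4-cKO line, -2.26 ± 0.24 (adjusted p = 8.96e-07) in the Nanog-cKO line and -0.18 ± 0.24 (adjusted p = 0.629) in the Sox2-cKO line. The change in the Sox2-cKO line differed from both others, by 1.64 from the Oct4-cKO line (adjusted p = 0.00256) and by 2.08 from the Nanog-cKO line (adjusted p = 2.45e-04). Ccnd1 overlaps Oraov1 on the other strand, and the strand setting of the counting is not given in the sources used here, so reads of the overlap cannot be assigned to 1 gene. The same holds for Ccna2, Ccnd2, Ccnd3, Ccne2, Cdk4, Cdk6, Cdk7, Rb1, Rbl1, Rbl2, E2f3, E2f8, Cdc25b and Cdc25c, which also overlap a gene of the other strand.

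Ccnd2, the cyclin D2 gene, was low in every tet-off library. It read 55.4 and 81.2 in Oct4-cKO ESCs against 16.9 and 16.2 in L-EPSCs, 159 and 140 in Sox2-cKO ESCs against 28.1 and 27.9, and 165 and 164 in Nanog-cKO ESCs against 23.4 and 16.3. The ESC and L-EPSC libraries did not overlap in any line, and the log2 fold changes were -1.96 ± 0.27 (adjusted p = 1.34e-05), -2.37 ± 0.27 (adjusted p = 2.57e-06) and -3.01 ± 0.27 (adjusted p = 9.93e-08). The L-EPSC values rest on 16 to 28 reads each. Ccnd3, the cyclin D3 gene, was called in no tet-off conversion, with log2 fold changes of 0.15, 0.22 and -0.44 in the same order of lines.

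Levels of different genes were compared per kilobase of exon (union of the exons of a gene in NCBIM37). On that scale Ccnd3 made up most of the D-type cyclin RNA of the tet-off lines, 84.1% ± 0.50 (SD, n = 2) in Oct4-cKO ESCs, 90.2% ± 0.74 in Sox2-cKO ESCs and 80.3% ± 0.43 in Nanog-cKO ESCs. In the L-EPSCs of these lines its share was 95.5% ± 0.14, 93.4% ± 0.21 and 93.7% ± 0.34, and that of Ccnd1 4.39%, 6.30% and 6.11%. In J1 cells the RNA was spread more evenly, with Ccnd1 at 31.9% ± 1.3 and Ccnd3 at 55.7% ± 1.4 in ESCs. Ccnd1 and Ccnd2 there read 3263 to 3550 and 1272 to 1975 normalized counts, against at most 1862 and 165 in the tet-off table, which was normalized separately.

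**Figure D3:**
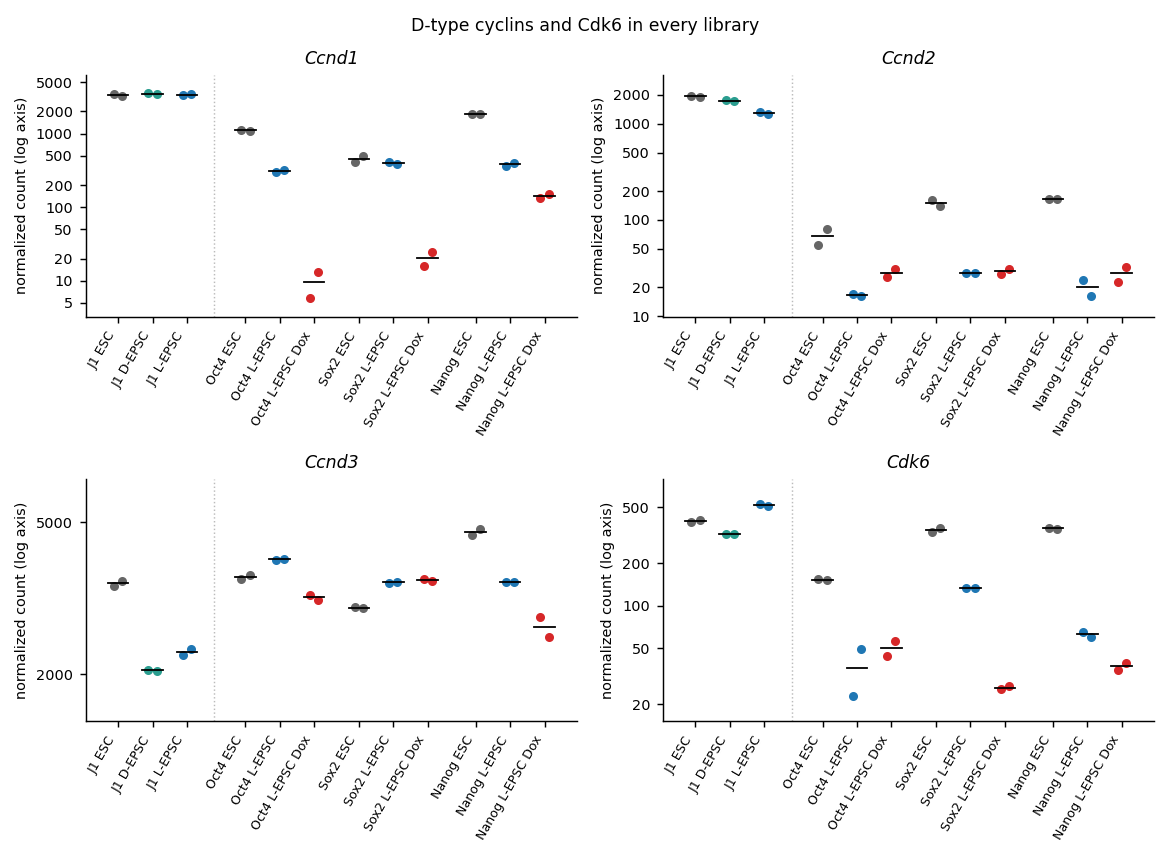
Normalized counts (log axis) of Ccnd1, Ccnd2, Ccnd3 and Cdk6 in every library, with points for libraries and a bar for the mean of 2. Grey is ESC, green D-EPSC, blue L-EPSC and red L-EPSC with Dox, and the dotted line divides the separately normalized J1 and tet-off tables. Ccnd1 drops to between 5.76 and 24.5 after Dox in the Oct4-cKO and Sox2-cKO lines, and Ccnd3 stays between 2046 and 4796 in all libraries.

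Cdk6 (NCBIM37 chr5:3343893-3523218, plus strand), a catalytic partner of the D-type cyclins, fell in every tet-off conversion, as Ccnd2 did. It read 154 and 152 in Oct4-cKO ESCs and 23.1 and 49.4 in L-EPSCs, with the L-EPSC libraries apart from each other but both below the ESCs. It read 335 and 357 against 134 and 133 in the Sox2-cKO line, and 359 and 347 against 65.0 and 60.1 in the Nanog-cKO line. The log2 fold changes were -2.14 ± 0.25 (adjusted p = 1.65e-06), -1.37 ± 0.25 (adjusted p = 2.83e-04) and -2.48 ± 0.25 (adjusted p = 3.24e-07). Cdk4, the other partner, changed less, by -0.66 ± 0.04 in the Oct4-cKO line (adjusted p = 1.78e-10) and -0.62 ± 0.04 in the Nanog-cKO line (adjusted p = 4.08e-10), which was -0.59 and not called after TMM scaling or without the second Nanog-cKO ESC library. In the Sox2-cKO line its log2 fold change was -0.24. Per kilobase Cdk4 stood far above Cdk6 in L-EPSCs, at 885 ± 20.1 (SD, n = 2) against 9.70 ± 4.99 in the Oct4-cKO line.

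The INK4 inhibitors rose in all 3 conversions. Cdkn2a, whose locus gives p16 and, from another reading frame, p19Arf (the counts add both), read 76.3 and 73.5 in Oct4-cKO ESCs and 229 and 175 in L-EPSCs. In the Sox2-cKO line it read 216 and 200.3 against 327 and 326, and in the Nanog-cKO line 63.8 and 70.6 against 227 and 179. No L-EPSC library was as low as an ESC library of its line. The log2 fold changes were 1.41 ± 0.14 (adjusted p = 2.32e-07), 0.65 ± 0.14 (adjusted p = 0.00117) and 1.57 ± 0.14 (adjusted p = 6.64e-08). The rise in the Sox2-cKO line was smaller than in the others, by 0.76 (adjusted p = 0.00979) and 0.92 (adjusted p = 0.00181). Without the second Sox2-cKO ESC library the rise was 0.59 and not called, and without the first Oct4-cKO L-EPSC library the difference of 0.76 was 0.57 and not called (adjusted p = 0.0522).

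Cdkn2b (p15), the neighbour of Cdkn2a on chromosome 4, read 52.3 and 34.8 in Oct4-cKO ESCs and 109 and 121 in L-EPSCs, 57.5 and 45.1 against 118 and 116 in the Sox2-cKO line, and 15.7 and 20.2 against 45.8 and 69.3 in the Nanog-cKO line. Its log2 fold changes were 1.41 ± 0.26, 1.18 ± 0.26 and 1.61 ± 0.26 (adjusted p = 2.30e-04, 0.00149 and 6.39e-05). Cdkn2c (p18) read 25.1 and 25.1 against 87.0 and 97.9 in the Oct4-cKO line, 49.5 and 32.1 against 95.1 and 94.8 in the Sox2-cKO line, and 9.41 and 21.3 against 62.8 and 63.2 in the Nanog-cKO line. Its log2 fold changes were 1.84 ± 0.29, 1.23 ± 0.29 and 2.07 ± 0.29 (adjusted p = 6.22e-05, 0.00302 and 1.83e-05), and that of the Sox2-cKO line was not called without the second Sox2-cKO ESC library (0.93, adjusted p = 0.0644). These are genes of low level, with 9 to 26 reads for Cdkn2c in ESCs of the Oct4-cKO and Nanog-cKO lines. For Cdkn2b and Cdkn2c none of the 3 differences between lines was called.

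Cdkn1b, the p27 inhibitor, read 435 and 430.3 in Oct4-cKO ESCs against 769 and 820.1 in L-EPSCs, 615 and 637 against 870 and 892 in the Sox2-cKO line, and 313 and 293 against 766 and 887 in the Nanog-cKO line. All L-EPSC libraries lay above the ESC libraries of their line. The log2 fold change was 0.88 ± 0.07 (adjusted p = 9.11e-09) in the Oct4-cKO line, 1.44 ± 0.07 (adjusted p = 2.09e-11) in the Nanog-cKO line and 0.49 in the Sox2-cKO line, where it was under the threshold. The Nanog-cKO rise exceeded that of the Sox2-cKO line by 0.95 (adjusted p = 1.08e-06). Among CDK inhibitors outside the list, Cdkn1a rose in all 3 lines, by 2.13 ± 0.06, 1.58 ± 0.06 and 1.57 ± 0.06, from 493 to 693 normalized counts in ESCs to between 1755 and 2277 in L-EPSCs, and Cdkn1c rose in the Oct4-cKO line (0.90 ± 0.07). The markers of other cell types also moved in these conversions. Of 8 trophoblast markers 5 were called higher in Oct4-cKO L-EPSCs, 3 higher and 1 lower in Nanog-cKO L-EPSCs and 4 lower in Sox2-cKO L-EPSCs. Of 6 primitive endoderm markers 5 were higher in Oct4-cKO L-EPSCs, 3 in Nanog-cKO L-EPSCs and 2 in Sox2-cKO L-EPSCs, where 3 were lower. Their summed level went from between 182 and 205 to between 1110 and 1191 in the Oct4-cKO line, from 167 in both libraries to between 338 and 350.4 in the Nanog-cKO line and from between 436 and 472 to between 522 and 592 in the Sox2-cKO line, and Gata6, a defining factor of that tissue, rose in each line (4.09, 2.10 and 0.93). The part of such cells in the inhibitor values was not tested.

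**Figure D4:**
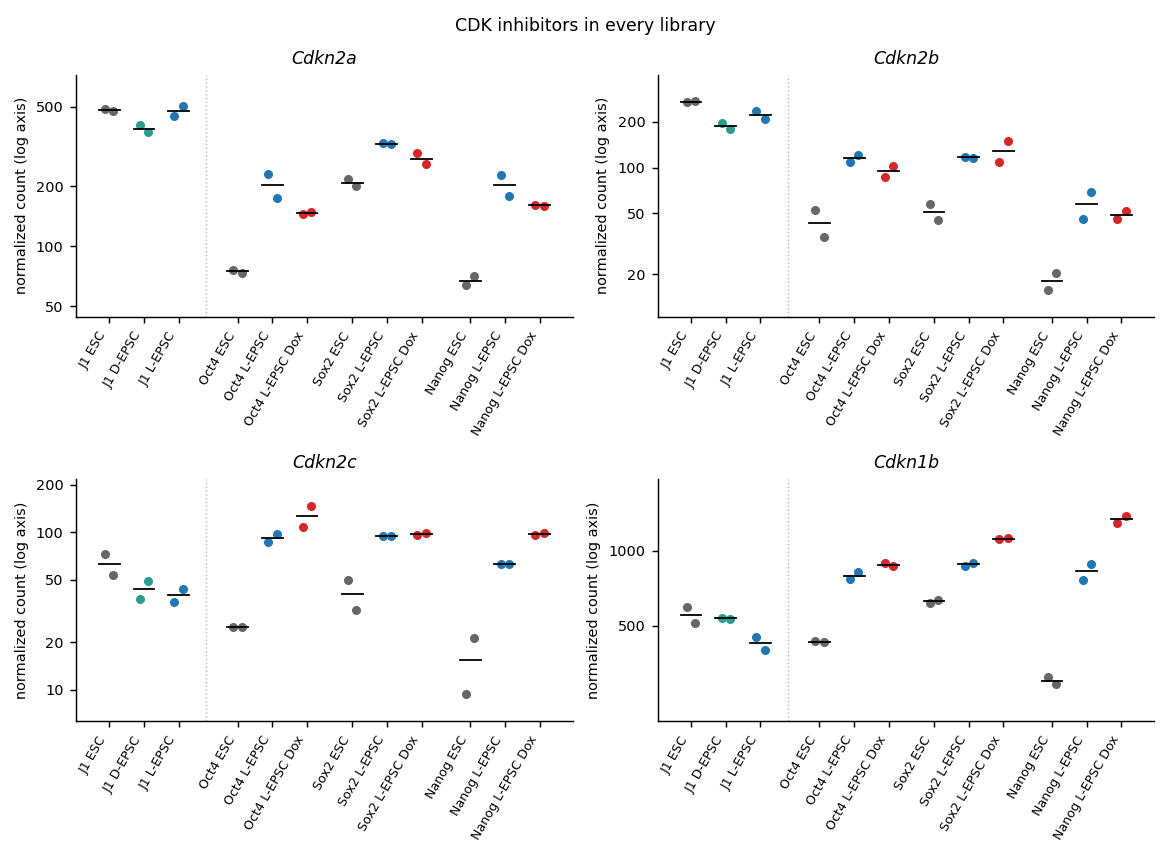
Normalized counts (log axis) of the INK4 genes Cdkn2a, Cdkn2b and Cdkn2c and of Cdkn1b in every library, drawn and coloured as in the plot of D-type cyclins. In each tet-off line both L-EPSC libraries lie above both ESC libraries, and in J1 cells the groups of Cdkn2a lie between 374 and 502.

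E2F factors went both ways in the conversions. E2f3, an activator E2F (NCBIM37 chr13:29998444-30077537, minus strand), read 577 and 616 in Oct4-cKO ESCs and 212 and 194 in L-EPSCs, 514 and 491 against 273 and 277 in the Sox2-cKO line, and 523 and 539 against 227 and 194 in the Nanog-cKO line, with no overlap. Its log2 fold changes were -1.55 ± 0.09, -0.86 ± 0.09 and -1.34 ± 0.09. E2f8, an atypical E2F that represses E2F targets (NCBIM37 chr7:56121799-56136966, minus strand), read 491 and 544 against 241 and 185, 863 and 877 against 440 and 429, and 1191 and 1167 against 693 and 665, and its log2 fold changes were -1.29 ± 0.09, -1.00 ± 0.09 and -0.80 ± 0.09. E2f2, another activator, fell in the Oct4-cKO line from 548 and 554 to 135 and 133 (-2.03 ± 0.12) and in the Nanog-cKO line (-1.14 ± 0.12). E2f4, the most abundant of the listed E2F genes per kilobase in ESCs and untreated L-EPSCs and a partner of the pocket proteins in repression, fell in the Oct4-cKO (-1.07 ± 0.06) and Sox2-cKO (-0.69 ± 0.06) lines and read 2126 and 2088 against 2031 and 2030 in the Nanog-cKO line. E2f5, also a repressor E2F, rose in the Oct4-cKO line from 260.4 and 267 to 655 and 660.2 (1.32 ± 0.10) and in the Nanog-cKO line (0.83 ± 0.10). E2f1, an activator, rose in the Nanog-cKO line (0.86), and E2f7, the other atypical E2F, fell in the Sox2-cKO line (-0.93).

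Each pocket protein was called in 1 of the tet-off conversions. Rb1, the retinoblastoma gene, rose in the Oct4-cKO line from 225 and 249 to 409 and 438 (0.84 ± 0.11, adjusted p = 8.41e-06). Rbl1 and Rbl2 rose in the Nanog-cKO line, by 0.72 ± 0.09 and 0.77 ± 0.12. Ccne1, the cyclin E1 gene, fell from 2053 and 2000 to 851 and 858 in the Oct4-cKO line (-1.25 ± 0.06, adjusted p = 2.90e-11) and from 1841 and 1845 to 1030 and 1010 in the Sox2-cKO line (-0.85 ± 0.06, adjusted p = 6.90e-09), with -0.45 in the Nanog-cKO line. Cdk2, its kinase, was called in none of these conversions (0.36, 0.34 and 0.59). Cdc25a, the phosphatase that activates CDK2, rose in the Oct4-cKO line (0.70 ± 0.06).

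Ccnf (cyclin F, the substrate receptor of a ubiquitin ligase) and the mitotic kinases Plk1 and Aurka were called in the Nanog-cKO conversion. They fell there by 1.11, 0.89 and 0.70 on the log2 scale. Plk1 read 2837 and 3083 in Nanog-cKO ESCs against 1665 and 1534 in L-EPSCs. Its change differed from that of the Oct4-cKO line by 0.70 (adjusted p = 2.84e-06) and from that of the Sox2-cKO line by 0.80 (adjusted p = 7.39e-07). Of 20 other mitotic genes, 2, 1 and 3 were called lower in the Oct4-cKO, Sox2-cKO and Nanog-cKO lines and 1 higher in the last. Of 20 genes of origin licensing and replication, known targets of E2F, 6 were lower and 1 higher in the Oct4-cKO line, with Tyms at -1.21 ± 0.07 and Pcna at -1.04 ± 0.04, 1 was lower and 1 higher in the Sox2-cKO line, and 4 were higher in the Nanog-cKO line, with Orc6 at 1.09 ± 0.06 and Cdc45 at 0.85 ± 0.06. Of 11 genes of cyclin and inhibitor turnover tested, 4, 3 and 4 were lower and 1 was higher in each line. Cdc20, an activator of the anaphase-promoting complex, was lower in all 3 lines (-0.87, -0.78 and -1.40) and Ube2s, a ubiquitin-conjugating enzyme of that complex, was higher (0.82, 0.79 and 0.80).

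Fewer members were called in J1 cells. Between D-EPSCs and ESCs 1 member was higher (10.8% of all genes tested were) and 3 were lower (9.98%). Between L-EPSCs and ESCs 1 was higher (8.8% of all genes) and 0 were lower (11.5%). At an unadjusted p under 0.05 limma had 13 members lower in L-EPSCs, and by the adjusted rule edgeR called 1 lower and DESeq2 0. The median size of the log2 fold change, without sign, was 0.28 and 0.21 for the members against 0.45 and 0.46 for all genes. Both comparisons share the same 2 ESC libraries.

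E2f8 was the member called in both. It read 694 and 741 in J1 ESCs, 1624 and 1558 in D-EPSCs and 1580 and 1620 in L-EPSCs, and its log2 fold changes were 1.15 ± 0.05 (adjusted p = 1.26e-06) and 1.16 ± 0.05 (adjusted p = 1.28e-06). E2f8 thus had opposite directions in J1 and tet-off conversions, a difference between separately normalized tables that was not tested. Ccne2, the cyclin E2 gene (NCBIM37 chr4:11118498-11131926, plus strand), read 350 and 392 in ESCs, 198 and 194 in D-EPSCs and 408 and 374 in L-EPSCs, and it was called lower in D-EPSCs (-0.91 ± 0.09, adjusted p = 1.35e-04) with L-EPSCs at the level of ESCs (0.08). Ccnd3 read 3417 and 3506 in ESCs, 2058 and 2046 in D-EPSCs and 2254 and 2332 in L-EPSCs. The D-EPSC change was called (-0.75 ± 0.03), and that of L-EPSCs was just under the threshold (-0.59 ± 0.03). Rbl1 read 533 and 615 in ESCs against 381 and 350 in D-EPSCs (-0.65 ± 0.10, adjusted p = 0.00122), and was not called when either D-EPSC library or the second ESC library was left out.

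Ccnd1 did not follow the tet-off lines in J1 cells, with 3488 and 3263 in ESCs, 3550 and 3471 in D-EPSCs and 3346 and 3419 in L-EPSCs, and log2 fold changes of 0.06 ± 0.04 (adjusted p = 0.287) and 0.00 ± 0.04 (adjusted p = 0.971). Ccnd2 read 1975 and 1922 in ESCs, 1783 and 1713 in D-EPSCs and 1338 and 1272 in L-EPSCs, and was called in none of the J1 comparisons. Nor were the listed CDK inhibitors, which rose in the tet-off conversions. Between J1 L-EPSCs and ESCs Cdkn2a changed by -0.03, Cdkn2b by -0.29, Cdkn2c by -0.64 and Cdkn1b by -0.375 (log2). Cdkn1a was called lower in D-EPSCs (-0.72 ± 0.05) and L-EPSCs (-0.74 ± 0.05) than in ESCs, opposite to the tet-off lines. Cdkn1c was called higher in both (1.42 ± 0.22 and 1.09 ± 0.22). Spry4, an ERK feedback gene chosen after its values were seen (J1 ESC and L-EPSC media both hold the MEK inhibitor), also had opposite directions in the tables. It read 94.4 and 101 in J1 ESCs, 1800 and 1661 in J1 D-EPSCs and 2872 and 2931 in J1 L-EPSCs. It read from 908 to 3051 in tet-off ESCs against 20.2 to 38.7 in tet-off L-EPSCs. The D-EPSC medium lists no MEK inhibitor, and why Spry4 was higher in the J1 libraries labelled L-EPSC was not tested. The part of ERK signaling, or of other cell types, in the cyclin D levels was not tested.

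Between the J1 EPSC states, 3 members were higher in the L state (4.8% of all genes tested were) and 0 were lower (8.58%). At an unadjusted p under 0.05 limma had 2 lower, and edgeR and DESeq2 called 0. Ccne2 was higher by 0.99 ± 0.09 (adjusted p = 1.49e-04). Cdk6 read 522 and 510.3 in L-EPSCs against 321 and 321 in D-EPSCs (0.68 ± 0.07, adjusted p = 1.78e-04), with J1 ESCs between them at 395 and 408. E2f2 read 396 and 345 against 185 and 202 (0.93 ± 0.10, adjusted p = 3.15e-04). The fibroblast and macrophage marker sums were both higher in D-EPSCs. Of the 20 replication genes 6 were lower in D-EPSCs than in ESCs, with Rrm2 at -0.89 ± 0.03 and Mcm4 at -0.83 ± 0.04, and 1 was lower in L-EPSCs than in ESCs (Mcm3, -0.64 ± 0.03). Tested directly between L-EPSCs and D-EPSCs, 0 of the 20 were called by limma or DESeq2 and 1 by edgeR, with 18 at an unadjusted p under 0.05 in limma. By limma, edgeR or DESeq2, 0 of the 20 mitotic genes were called in any J1 comparison, with 12 to 17 of them at an unadjusted p under 0.05 in limma.

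Dox was used to ask what L-EPSCs do when Oct4, Sox2 or Nanog is shut off. No sequenced group held Dox-treated cells without a tet-off transgene, so effects of Dox itself and of the factor cannot be told apart. After Oct4 loss 3 members were called higher (8.53% of all genes tested were) and 3 lower (10.8%). After Sox2 loss 1 was higher (7.79%) and 3 lower (7.32%), and after the reduction of Nanog 0 were higher (2.8%) and 2 lower (2.59%). In the last, limma had 10 members higher at an unadjusted p under 0.05, and edgeR and DESeq2 called 0. These comparisons share the untreated L-EPSC libraries with the conversions above. Reduction of Nanog refers here to its RNA, and the paper reports loss of the Nanog protein after Dox. The share of members called, 16.7%, 11.1% and 5.56%, lay near that of all genes.

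Ccnd1 fell in all 3 lines. It went from 305 and 322 to 5.76 and 13.3 in the Oct4-cKO line, from 408 and 390.1 to 15.7 and 24.5 in the Sox2-cKO line, and from 367 and 405 to 134 and 152 in the Nanog-cKO line. The log2 fold change was -5.00 ± 0.24 (adjusted p = 4.43e-11) with Oct4 loss, -4.28 ± 0.24 (adjusted p = 4.91e-10) with Sox2 loss and -1.43 ± 0.24 (adjusted p = 3.26e-04) with the reduction of Nanog. The libraries after Dox rest on 5 and 12 reads in the Oct4-cKO line and 19 and 30 in the Sox2-cKO line. Ccnd1 fell more after Oct4 and Sox2 loss than after the reduction of Nanog, by 3.57 ± 0.35 (adjusted p = 4.36e-07) and 2.85 ± 0.35 (adjusted p = 7.28e-06) on the log2 scale. Nanog itself fell by 1.52 in its own line. Per kilobase, Ccnd3 was left at 99.5% ± 0.16 and 99.3% ± 0.14 (SD, n = 2) of the D-type cyclin RNA after Oct4 and Sox2 loss. Ccnd2 was called in none of the 3 (0.73, 0.05 and 0.46).

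Cdk6 changed differently after Dox in lines that started at different levels. After Sox2 loss it fell from 134 and 133 to 25.6 and 27.0 (-2.30 ± 0.25, adjusted p = 9.04e-07). In the Oct4-cKO line it read 23.1 and 49.4 before and 43.8 and 56.6 after Dox, with overlapping groups (0.54 ± 0.25, adjusted p = 0.0891). In the Nanog-cKO line it went from 65.0 and 60.1 to 35.1 and 39.3 (-0.73 ± 0.25), which was under the threshold. The response differed between the Oct4-cKO and Sox2-cKO lines by 2.84 ± 0.35 (adjusted p = 1.03e-05). After Dox the libraries of all 3 lines lay between 25.6 and 56.6.

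Ccne2 rose after Oct4 and Sox2 loss, and of the listed E2F genes E2f3 and E2f8 rose, both after Oct4 loss. Ccne2 went from 188 and 191 to 776 and 753 after Oct4 loss (2.00 ± 0.10, adjusted p = 8.08e-11) and from 134 and 138 to 385 and 430.1 after Sox2 loss (1.58 ± 0.10, adjusted p = 2.44e-09), with 145 and 164 before and 158 and 155 after Dox in the Nanog-cKO line (0.02). E2f8 went from 241 and 185 to 977 and 934 after Oct4 loss (2.17 ± 0.09, adjusted p = 4.54e-12), and read 440 and 429 before and 469 and 460.3 after Sox2 loss (0.10, adjusted p = 0.443). The difference between these responses was 2.07 ± 0.12 (adjusted p = 3.76e-09). E2f3 went from 212 and 194 to 617 and 656 after Oct4 loss (1.65 ± 0.09, adjusted p = 1.13e-10), against 577 and 616 in Oct4-cKO ESCs. After Sox2 loss it went from 273 and 277 to 538 and 531 (0.95 ± 0.09), just under the threshold of 1, and in the Nanog-cKO line its log2 fold change was 0.43. The Oct4 response of E2f3 exceeded that of the Nanog-cKO line by 1.21 ± 0.12 (adjusted p = 7.27e-07), and its difference from the Sox2 response, 0.69, was under the threshold. The other listed E2F genes were not called in any Dox comparison. E2f1 read 907 and 886 before and 473 and 483 after Oct4 loss (-0.91 ± 0.07), with -0.16 and -0.29 in the Sox2-cKO and Nanog-cKO lines. E2f4 had log2 fold changes of -0.26, -0.71 and -0.52 and E2f5 of -0.58, -0.90 and -0.32 in the Oct4-cKO, Sox2-cKO and Nanog-cKO lines, those of E2f7 were 0.91, 0.50 and -0.14, and those of E2f2 -0.16, 0.09 and -0.61.

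Other members fell. Cdc25b, a phosphatase that activates CDK1, went from 438 and 507 to 153 and 169 after Oct4 loss (-1.55 ± 0.09, adjusted p = 2.48e-10), with -0.52 and -0.54 in the Sox2-cKO and Nanog-cKO lines. The differences from these lines, -1.03 and -1.00, lay at the threshold and were lost when single libraries were left out (-0.92 without the second untreated Oct4-cKO library). Cdk2 was called lower in the Nanog-cKO line, from 1600 and 1597 to 765 and 764 (-1.06 ± 0.05, adjusted p = 1.77e-10), and its log2 fold changes of -0.66 and -0.88 after Oct4 and Sox2 loss were under the threshold of 1. None of the 3 differences between lines was called for Cdk2. Ccna1, the cyclin A1 gene of germ cells, was near the limit of detection: its 61 reads in untreated Oct4-cKO L-EPSCs became 3 after Dox, a ratio of 0.062 with a 95% counting interval of 0.013 to 0.19, and its 23 reads in the Sox2-cKO line became 5, a ratio of 0.17 (0.051 to 0.46). The call in the Sox2-cKO line was lost with the compared groups alone (adjusted p = 0.0568). In the Nanog-cKO line 49 reads stood on either side. These intervals are exact binomial ones and cover counting error only.

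The inhibitors of the list were not called after Dox in any line. Cdkn2a read 145 and 148 after Oct4 loss, and the log2 fold changes of the INK4 genes over the 3 lines ran from -0.45 to 0.62. Cdkn1b had 0.14, 0.34 and 0.69. Outside the list, Cdkn1c (p57), an inhibitor of trophoblast giant cells and many differentiating tissues, went from 838 and 842 to 11149 and 10926 after Oct4 loss (3.71 ± 0.07, adjusted p = 2.51e-16) and from 370 and 314 to 2905 and 3092 after Sox2 loss (3.13 ± 0.07, adjusted p = 4.71e-15), with 364 and 385 before and 527 and 538 after Dox in the Nanog-cKO line (0.51). Cdkn1a was called in no Dox comparison (0.23, 0.48 and -0.64). All 8 pluripotency markers were lower after Oct4 and after Sox2 loss and 1 after the reduction of Nanog, and 5, 6 and 1 of 8 trophoblast markers were higher. The summed level of the trophoblast markers went from between 4319 and 4424 to between 27726 and 28185 in the Oct4-cKO line and from between 1847 and 1870 to between 11482 and 11511 in the Sox2-cKO line. That of the primitive endoderm markers went from between 1110 and 1191 to between 1249 and 1336 in the Oct4-cKO line and from between 522 and 592 to between 849 and 858 in the Sox2-cKO line. These markers did not move as one. After Oct4 loss 1 of the 6 was called higher and 2 lower, and after Sox2 loss 2 were higher and 2 lower. Pdgfra was among the higher ones in both lines (1.46 and 2.17). The part of these cells in the values of the members was not tested.

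**Figure D5:**
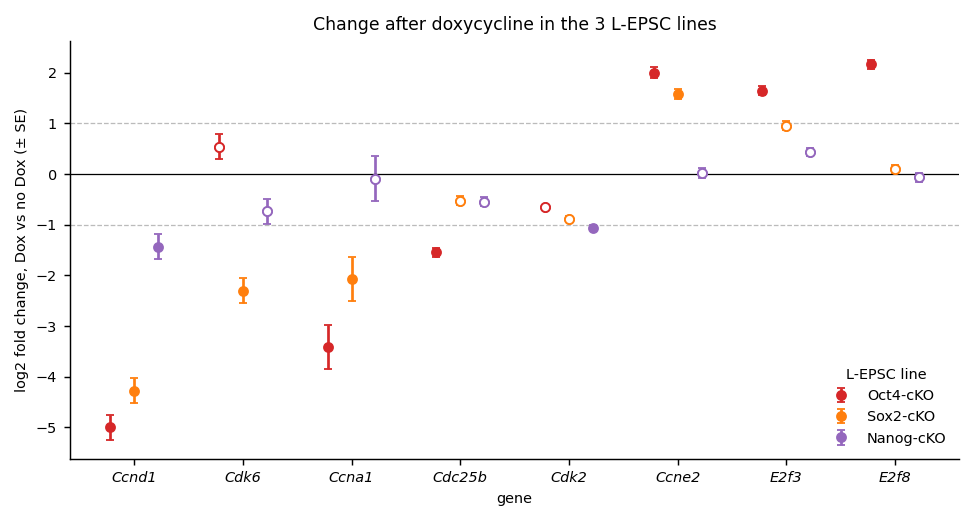
Log2 fold change (± SE from the limma fit) after Dox in the 3 L-EPSC lines for the 8 members called in at least 1 of them, with filled points where called, open points where not, and dashed lines at 1 and -1. Ccnd1 is below -1 in all 3 lines, Ccne2 is near 2.00 and 1.58 in the Oct4-cKO and Sox2-cKO lines and at 0.02 in the Nanog-cKO line, and E2f8 is raised in the Oct4-cKO line.

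The lines were also compared with each other, by the difference of their changes. For conversion the members called were 7 between the Oct4-cKO and Sox2-cKO lines (10% of all genes tested were), 8 between the Oct4-cKO and Nanog-cKO lines (14.7%) and 10 between the Sox2-cKO and Nanog-cKO lines (14.8%). For the response to Dox they were 3 (6.81% of all genes), 8 (14.8%) and 5 (11.3%) in the same order. The response of Ccne2 exceeded that of the Nanog-cKO line by 1.98 in the Oct4-cKO line and by 1.55 in the Sox2-cKO line. Rb1 was called after Dox in no line, and read 544 and 504 before and 321 and 246 after Sox2 loss (-0.90), against 409 and 418 before and 467 and 452 after Dox in the Nanog-cKO line (0.15). The difference between these responses was called (-1.05 ± 0.16). That difference was -0.86 and not called without the second Sox2-cKO Dox library, and -0.99 without the first untreated one.

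Among the wider machinery, few replication and mitotic genes were called after Dox. Over all genes tested, 8.53% were called higher and 10.8% lower after Oct4 loss, and 7.79% and 7.32% after Sox2 loss. Of the 20 replication genes 1 was lower after Oct4 loss and 1 after Sox2 loss, in both cases Mcm7, a subunit of the replicative helicase (-1.07 ± 0.03 and -1.17 ± 0.03), and of the 20 mitotic genes 0 were called in any line by limma, edgeR or DESeq2, with 17, 19 and 12 of them at an unadjusted p under 0.05 in limma after Oct4, Sox2 and Nanog Dox. Their median log2 fold changes were -0.42 and -0.55 (replication) and -0.19 and -0.38 (mitotic) after Oct4 and Sox2 loss, against 0.00 for all genes. In the Nanog-cKO line the same medians were -0.18 and 0.03. Of the 9 E2F partners and MuvB genes tested, Lin9 rose and Lin52 and Tfdp2 fell after Oct4 loss, and E2f6 rose and Mybl2 fell after Sox2 loss. Of 4 checkpoint kinases, Chek2 fell after Sox2 loss (-1.02 ± 0.07). Among the 11 turnover genes tested, Cul1 rose after Oct4 loss (1.11 ± 0.07) and Ube2s fell after Sox2 loss (-1.04 ± 0.03).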

How the data were processed

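Poly(A) RNA libraries were made by the authors with the Universal Plus mRNA-Seq kit. Per the study's methods and the submitters' processing notes, reads were trimmed with Trim Galore 0.6.4, aligned to mm9 (NCBIM37) with STAR 2.7.9a, counted per gene with HTSeq 0.11.2 (strand setting not given in the sources used here) and scaled with DESeq2 (version as stated, 4.1.1). The deposited values are a signal, counts divided by a size factor. Every value in all 24 columns was a whole multiple of 1 read (tolerance 0.05 reads), so whole reads were recovered for count tests. The J1 table (6 libraries) and the tet-off table (18 libraries) were normalized separately and tested separately. A minimum of 2 reads per gene, summed over a table, was set, and the tests ran on log2(normalized count + 1) with limma 3.58.1 (trend; R 4.3.3), all groups of a table in 1 fit, with Benjamini-Hochberg adjustment over all genes tested. Calls required a log2 size over 0.6 (states) or 1 (Dox) with the adjusted p under 0.05. Fold changes are on that scale, which understates the change of low genes. Differences between lines were contrasts of the same fit. An exact permutation test of 2 against 2 cannot go below p = 0.333. Alternatives were edgeR 4.0.16 and DESeq2 1.42.0 on recovered reads, TMM scaling, a mean of at least 10, a pseudocount of 0.1, the compared groups alone, the other fold threshold, a replicate block and leaving out each library. The fits were run on simulated data for J1 D-EPSCs against ESCs and for the Oct4-cKO Dox comparison. In each, 200 genes with a mean of at least 10 were changed by more than the thresholds. Recovery by limma was 88.5% and 92.5%. The simulated spread between libraries was a small fixed value. Genes of lower mean, changes near the thresholds and differences between lines were not simulated. Members, lists and the naming rule (every member, and the called genes of largest change with a mean of at least 100 in each list) were chosen with earlier results of these data known. Gene positions and exon lengths are those of GENCODE vM1 (NCBIM37). The median log2 fold change of expressed genes lay between -0.028 and 0.041 over the comparisons and both scalings.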

Additional observations from a re-analysis of the deposited data

Results flagged for a closer look

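Differences between the changes of 2 tet-off lines that passed the limma test (log2 scale, first line minus second, adjusted p under 0.05) are listed by pair of lines. In conversion to L-EPSCs, the Oct4-cKO minus Sox2-cKO differences were Ccnd1 -1.64, Ccne2 0.74, Cdkn2a 0.76, Rb1 0.73, E2f2 -1.54, E2f3 -0.69 and E2f5 0.76. In conversion to L-EPSCs, the Oct4-cKO minus Nanog-cKO differences were Ccne1 -0.79, Ccne2 0.81, Ccnf 0.60, Rb1 0.68, Rbl2 -0.73, E2f2 -0.89, E2f4 -1.02 and Plk1 0.70. In conversion to L-EPSCs, the Sox2-cKO minus Nanog-cKO differences were Ccnd1 2.08, Ccnd3 0.66, Ccnf 0.93, Cdk6 1.11, Cdkn1b -0.95, Cdkn2a -0.92, E2f2 0.65, E2f4 -0.64, Plk1 0.80 and Aurka 0.73. In the response to Dox, the Oct4-cKO minus Sox2-cKO differences were Cdk6 2.84, E2f8 2.07 and Cdc25b -1.03. In the response to Dox, the Oct4-cKO minus Nanog-cKO differences were Ccna1 -3.32, Ccnd1 -3.57, Ccne2 1.98, Cdk6 1.28, E2f3 1.21, E2f7 1.05, E2f8 2.24 and Cdc25b -1.00. In the response to Dox, the Sox2-cKO minus Nanog-cKO differences were Ccna1 -1.98, Ccnd1 -2.85, Ccne2 1.55, Cdk6 -1.57 and Rb1 -1.05. The Cdk6 difference in conversion between the Sox2-cKO and Nanog-cKO lines was not called when any one of the 8 libraries was left out, with adjusted p from 0.0607 to 0.099. The E2f2 difference between the same lines was not called with the compared groups alone (adjusted p = 0.0591) or without the second Sox2-cKO ESC, Sox2-cKO L-EPSC or Nanog-cKO ESC library (0.52 to 0.58). Between the Oct4-cKO and Nanog-cKO conversions the Ccnf difference lay at the threshold and was not called with edgeR (0.59), DESeq2 (0.60) or TMM scaling (0.59) or without any of 4 single libraries (down to 0.54 without the first Nanog-cKO L-EPSC library), and the Rb1 difference was 0.59 and not called without the first Nanog-cKO ESC library. The Cdk6 difference in the Dox response between the Oct4-cKO and Nanog-cKO lines was 0.75 and not called without the first untreated Oct4-cKO library (23.1 normalized counts, against 49.4 in its partner), and it was also lost without the second Oct4-cKO Dox library (adjusted p = 0.0581) and with the compared groups alone (adjusted p = 0.159). The E2f7 difference there was 0.95 and 0.98, under the threshold of 1, without the first untreated Nanog-cKO or Oct4-cKO library. The Ccna1 difference in the Dox response between the Sox2-cKO and Nanog-cKO lines was not called when 1 of 4 single libraries was left out, with adjusted p from 0.0545 to 0.0728.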

How the results depend on the processing

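Over the 15 comparisons 105 member calls were made, and no call was reversed by any alternative. With the other fold threshold (1 in place of 0.6, and 0.6 in place of 1) 62 calls were kept. The members called were then 1 (D-EPSC against ESC) and 0 (L-EPSC against D-EPSC) in J1 cells, 5 and 10 in the Sox2-cKO and Nanog-cKO conversions, and 12, 11 and 5 after Dox in the Oct4-cKO, Sox2-cKO and Nanog-cKO lines. For differences between lines they were 2, 1 and 2 in conversion and, in the Dox response, 7 (Oct4-cKO minus Sox2-cKO) and 11 (Sox2-cKO minus Nanog-cKO). J1 L-EPSCs against ESCs had 2 members called, in place of 1, with edgeR and with a mean of at least 10. With edgeR, DESeq2, TMM scaling, the mean filter, the smaller pseudocount, the replicate block and the groups compared alone, 719 of 735 repeated calls were kept. Cdk6 in the Oct4-cKO conversion was not called with the groups compared alone (adjusted p = 0.0632), nor were Cdkn2c in the Sox2-cKO and Cdkn2b, Cdkn2c and E2f5 in the Nanog-cKO conversion, Ccna1 after Sox2 loss, and the differences between lines of Cdkn2a (Oct4-cKO minus Sox2-cKO) and E2f2 (Sox2-cKO minus Nanog-cKO) in conversion and of Cdk6 (Oct4-cKO minus Nanog-cKO) in the Dox response, where fewer libraries estimate the spread.

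Leaving out 1 library at a time kept 543 of 584 calls. The members called ranged from 1 to 2 in J1 L-EPSCs against ESCs, where 2 were called without the first ESC library or without either L-EPSC library, and from 3 to 5 in the Dox response between the Sox2-cKO and Nanog-cKO lines, where 3 were called without the first untreated Sox2-cKO library. A lone library was assumed to vary like the other groups. Same-numbered libraries did not deviate together (r from -0.028 to 0.040 over 39 pairs of groups), so the numbers were not taken as pairs, and with the replicate block the counts of members called were the same in all 15 comparisons, for example 16 in the Oct4-cKO conversion. Groups with at most 30 reads in both libraries were found for Ccna1, Ccnd1, Ccnd2, Cdkn2b and Cdkn2c.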
